A study of Mus musculus with 120 samples.

Results

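The metallothioneins and antioxidant enzymes described here are 10 genes of the mouse endolymphatic sac: Mt1, Mt2, Gpx1, Gpx2, Gpx3, Gpx4, Sod1, Prdx1, Txn1 and Nqo1. They were taken by gene symbol from an expression table of 48371 symbols, and all 10 were found. They were selected on the FPKM values of these same cells, as earlier results had shown them, so their levels are a description with no test attached. The endolymphatic sac is a fluid-filled pouch of the inner ear lined by epithelium and surrounded by connective tissue. Tissue of E14.5 embryos was dissociated and its cells sequenced 1 by 1 with Smart-seq2, which copies whole transcripts of single cells into libraries. There were 62 Sox9Y440X/+ cells, from animals carrying 1 copy of a Sox9 allele named for a stop codon at residue 440, and 58 wild-type cells. No other allele or treatment is labelled, and no label ties a cell to an animal, a litter or a plate, so each genotype counts as 1 sample and the differences below have no replicate error.

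Cells with at least 1000 genes per label were kept, 58 Sox9Y440X/+ and 57 wild-type. They were grouped without the members, the related pathway genes or Oc90, so that these genes did not set the groups. Epithelium-like cells numbered 37 of 58 Sox9Y440X/+ cells and 56 of 57 wild-type cells, and mesenchyme-like cells, the connective tissue class, 21 Sox9Y440X/+ cells and 1 wild-type cell. Epcam, an epithelial adhesion protein, was detected in 37 of 37 Sox9Y440X/+ and 55 of 56 wild-type epithelium-like cells but in 1 of 21 mesenchyme-like Sox9Y440X/+ cells. Col3a1, a fibrillar collagen, was detected in 0 of 37 and 1 of 56 epithelium-like cells and in 20 of the 21 mesenchyme-like cells. Col1a2, also a collagen, parted the classes less cleanly. It was in 10 of 37 Sox9Y440X/+ and 3 of 56 wild-type epithelium-like cells and in 20 of the 21 mesenchyme-like cells. Its highest value in Sox9Y440X/+ epithelium-like cells was 156 FPKM, against a median of 242 FPKM in the mesenchyme-like Sox9Y440X/+ cells. Among these 21 cells, 1 held 11 of 11 endothelium markers with no mesenchyme marker, and 6 held 1 or 2 of 14 epithelium markers. Sox9Y440X/+ cells had more genes: the median per label was 4506 in Sox9Y440X/+ and 3241.5 in wild-type epithelium-like cells, and 3593 in mesenchyme-like Sox9Y440X/+ cells. Xist, the RNA of the inactive X chromosome of female cells, was detected in 0 of 37 Sox9Y440X/+ and 34 of 56 wild-type epithelium-like cells, so cells with Xist were found in wild type alone. Genotype and embryo sex therefore cannot be told apart in the full comparison. The 34 cells held a mean of only 9.72 FPKM of Xist, so a wild-type cell without it may be a female cell in which it was missed. Several genotype differences are also given in cells of 2500 to 5500 genes and against the 22 wild-type cells without Xist.

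Values are FPKM, fragments scaled by transcript length and library size, which may be compared between genes because they are per length. Detection means an FPKM of 1 or more. Shares of cells carry 95% intervals (exact Clopper-Pearson), and these cover only the error of counting cells. For a count of 0 the limit given is 3 cells of the total, which is tighter than the upper end of the exact interval. Differences are of the mean log2(FPKM + 1), a scale with a pseudocount of 1 that understates differences of low genes, and a difference of at least 1 log2 unit is called higher or lower.

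Metallothioneins are small cysteine-rich proteins that bind zinc and copper and can also react with oxidants. Their genes are switched on through metal response elements, short promoter motifs bound by the zinc-sensing factor MTF1. Superoxide dismutases turn superoxide into hydrogen peroxide, and glutathione peroxidases, peroxiredoxins and the thioredoxin system then reduce peroxides and oxidized proteins. In the inner ear the oxidase Nox3, a source of superoxide, and otoconin-90, the product of Oc90, are both required in mice for normal otoconia, the mineral particles of the balance organs.

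Mt1 (ENSMUSG00000031765.8, GRCm38 chromosome 8, 94179082 to 94180327, plus strand) had the highest mean FPKM of the 10 members in epithelium-like cells of both genotypes and was listed at 0 in every mesenchyme-like cell. In Sox9Y440X/+ epithelium-like cells it ranged from 0 to 3467 FPKM with a median of 185, and in wild-type epithelium-like cells from 0 to 3036, with 475 as the median. The cells of both genotypes overlapped over almost the whole range, and in each some cells were at 0. Mt1 was detected in 31 of 37 Sox9Y440X/+ cells (83.8%, 95% interval 67.99% to 93.8%) and 46 of 56 wild-type cells (82.1%, 69.6% to 91.1%). Its mean was 673 FPKM in Sox9Y440X/+ and 699 FPKM in wild-type epithelium-like cells, a difference of 0.03 log2 units. That value was below the median of all 5957 genes compared, 0.36, and 28.9% of genes had a lower difference. Against the 22 wild-type cells without Xist, of which 21 had Mt1, the difference was -1.52.

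In mesenchyme-like Sox9Y440X/+ cells Mt1 was detected in 0 of 21, which allows a share of up to 14.3%, and the 1 mesenchyme-like wild-type cell was also at 0. Epithelium-like and mesenchyme-like Sox9Y440X/+ cells differed by 7.22 log2 units, a larger value than that of 99.8% of the 6620 genes compared between these classes. Mt1 was chosen on these values and was among the genes compared through epithelium-like cells alone, so this rank is description. Other genes were detected in these connective cells to differing extents, Sod1 in 21 of 21 and Prdx1 in 19 of 21, and Gapdh was listed at 0 in 2 of them. The part of detection in the Mt1 difference was not tested. With 2500 to 5500 genes per label, the counts were 23 of 27 epithelium-like and 0 of 15 mesenchyme-like cells, and without the 7 connective cells that carried endothelium or epithelium markers or no mesenchyme marker, 0 of 14.

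Mt2 (ENSMUSG00000031762.7, GRCm38 chromosome 8, 94172664 to 94173568, plus strand), the neighbouring metallothionein, showed the same division at a lower level. It ranged from 0 to 1158 FPKM with a median of 11.3 in Sox9Y440X/+ epithelium-like cells, and from 0 to 889.9 with a median of 0 in wild-type epithelium-like cells. It was detected in 19 of 37 Sox9Y440X/+ cells (51.4%, 34.4% to 68.1%) and 26 of 56 wild-type cells (46.4%, 32.99% to 60.3%), with means of 159.9 and 123 FPKM and a difference of 0.38. The sign turned in cells of 2500 to 5500 genes (-0.39) and against wild-type cells without Xist (-0.68). Of mesenchyme-like Sox9Y440X/+ cells 2 of 21 had it, with a highest value of 79.7 FPKM, and 1 cell held 95.6% of the summed FPKM. Epithelium-like minus mesenchyme-like, the difference was 3.39. An annotated gene on the opposite strand covers 432 of the 588 exon bases of Mt2, and without strand information its reads cannot be told from those of Mt2.

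**Figure D1:**
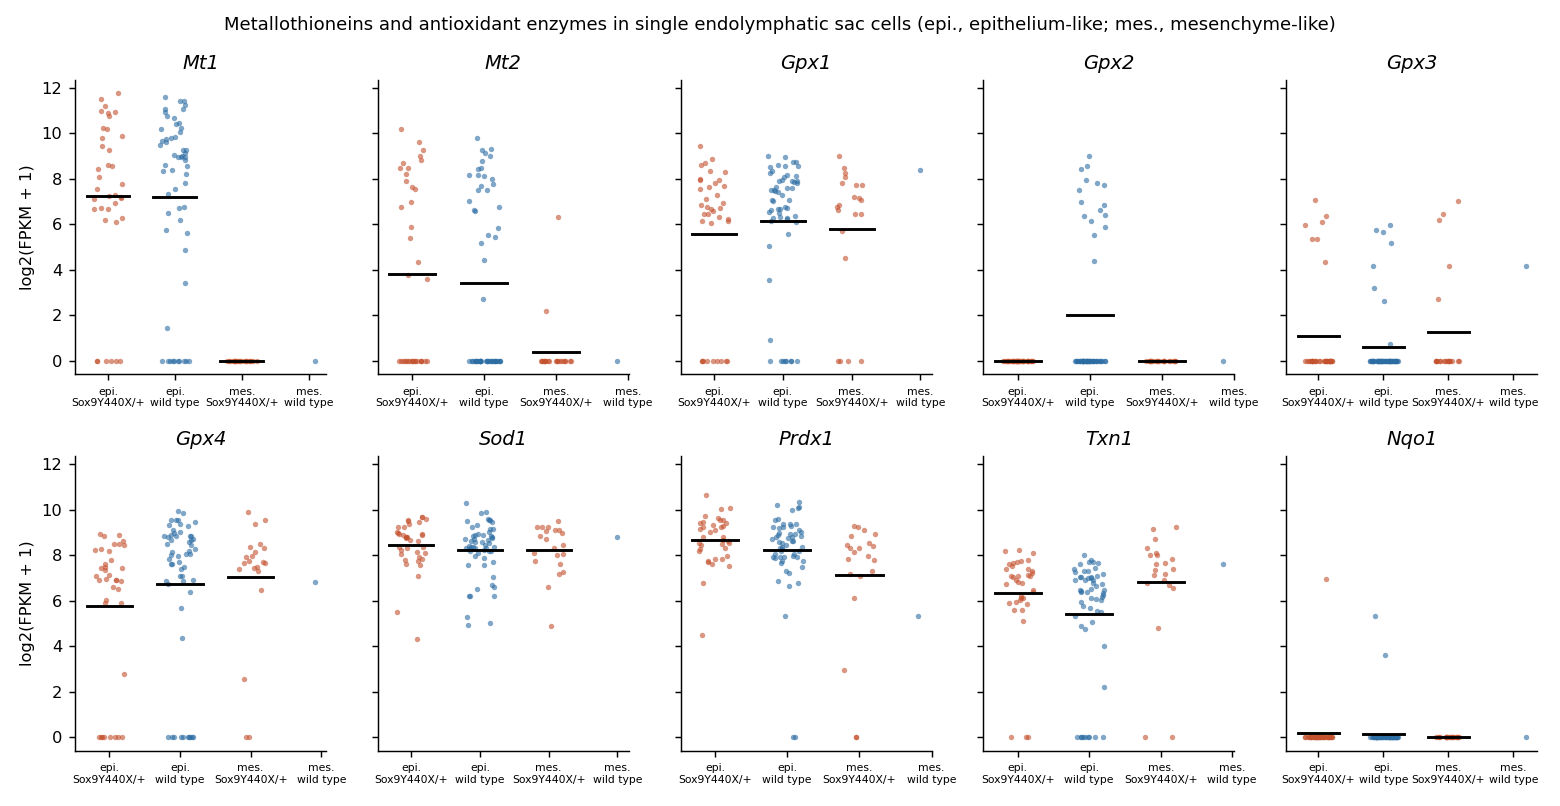
Expression of the 10 members in single cells, as log2(FPKM + 1) on the vertical axis, in epithelium-like (epi.) and mesenchyme-like (mes.) cells of each genotype; points are cells and black bars are means. Mt1 spans 0 to 3467 FPKM in epithelium-like cells and is at 0 in all 21 mesenchyme-like Sox9Y440X/+ cells, while Gpx2 is above 0 only in 16 wild-type epithelium-like cells.

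The metallothioneins moved together from cell to cell. In epithelium-like cells, all 19 Sox9Y440X/+ and all 26 wild-type cells with Mt2 also had Mt1, whereas 12 Sox9Y440X/+ and 20 wild-type cells had Mt1 alone. Spearman's rho between them was 0.77 over 37 Sox9Y440X/+ cells and 0.81 over 56 wild-type cells. These are descriptions across cells that share their library preparation and differ in depth. The rho of Mt1 with the number of genes per label was 0.09 in Sox9Y440X/+ and 0.26 in wild-type cells. Within cluster 3 rho was 0.93 over 11 Sox9Y440X/+ and 0.91 over 10 wild-type cells, and in cluster 6 it was 0.81 over 6 and 0.72 over 22. It was lower in cluster 2, 0.49 over 10 Sox9Y440X/+ cells, and in cluster 1, 0.26 over 8 wild-type cells. Of the 45 pairs of members, 36 had a rho in Sox9Y440X/+ cells and 45 in wild-type cells. Mt1 and Mt2 gave the highest of them in each genotype, and the one other pair at or above 0.5 was Mt1 and Gpx4 in wild type (0.58). In cells with both, the median ratio of Mt1 to Mt2 FPKM was 4.45 in Sox9Y440X/+ and 5.10 in wild type, and Mt2 exceeded Mt1 in 2 Sox9Y440X/+ cells and 0 wild-type cells.

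**Figure D2:**
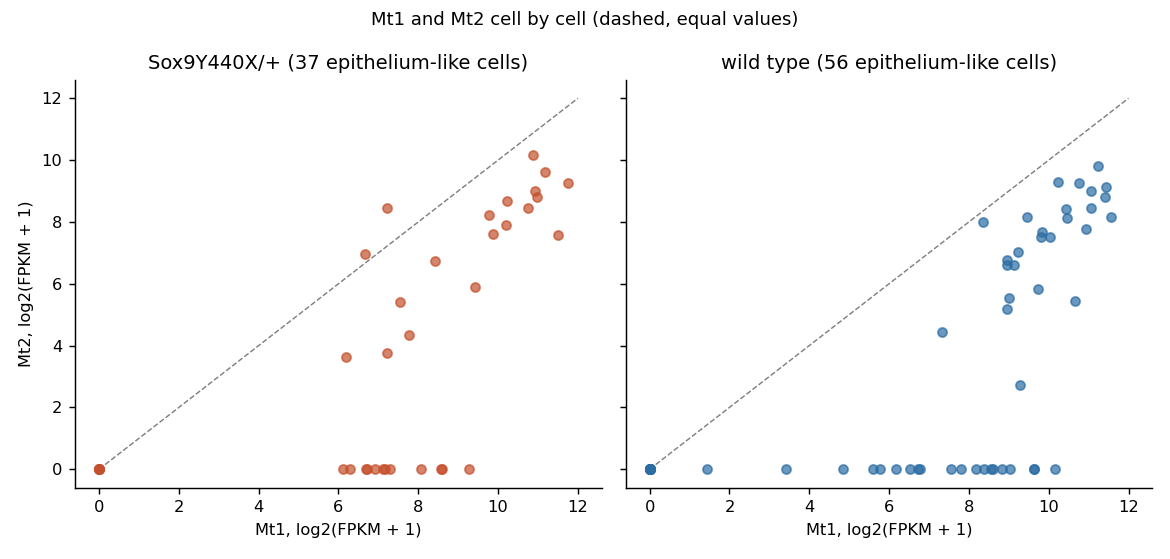
Mt1 (horizontal) against Mt2 (vertical), both as log2(FPKM + 1), in 37 Sox9Y440X/+ (left) and 56 wild-type (right) epithelium-like cells; points are cells and the dashed line marks equal values. No cell has Mt2 without Mt1, and most cells lie under the line.

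The promoters of the pair are shown because both genes carry the motif through which metallothioneins are known to respond to zinc. The sequences are RefSeq's for build GRCm38.p6, from 250 bases before to 50 bases after the start annotated there, written 5′ to 3′ on the gene's strand. For Mt1 and Mt2 that start differs from the GENCODE start given above. Capitals mark metal response elements, searched as TGCACNC or TGCGCNC on both strands. The Mt1 window lies at chr8:94178839-94179138 and the Mt2 window at chr8:94172368-94172667, both on the plus strand.
Mt1: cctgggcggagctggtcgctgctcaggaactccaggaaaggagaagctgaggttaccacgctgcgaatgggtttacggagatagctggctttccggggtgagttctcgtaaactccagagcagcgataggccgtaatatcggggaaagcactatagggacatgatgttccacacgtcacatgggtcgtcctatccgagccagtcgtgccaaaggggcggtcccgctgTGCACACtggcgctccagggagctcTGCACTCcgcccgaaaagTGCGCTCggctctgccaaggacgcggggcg
Mt2: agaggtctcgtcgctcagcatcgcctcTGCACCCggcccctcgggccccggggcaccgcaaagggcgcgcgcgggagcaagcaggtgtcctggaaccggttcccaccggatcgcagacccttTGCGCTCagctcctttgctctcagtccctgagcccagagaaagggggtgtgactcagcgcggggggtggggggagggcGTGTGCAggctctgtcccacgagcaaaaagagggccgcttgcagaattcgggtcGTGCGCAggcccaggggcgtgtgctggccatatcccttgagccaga
The Mt1 window held 3 matches, all on the forward strand and beginning 23 bases before, 2 bases after and 20 bases after the annotated start. The Mt2 window held 4, 2 on each strand, beginning 223, 128 and 50 bases before and 4 bases after its RefSeq start. The GENCODE start of Mt2 lies after all 4. Of 32544 promoters of the same length, 25.9% held at least 1 match, 1.99% at least 3 and 0.522% at least 4. The windows of the other 8 members held none. An antioxidant response element, searched as TGACNNNGC on both strands and found in 12.4% of promoters, matched once each in Mt2, Sod1 and Prdx1, without overlap with a metal response element. A match is a run of letters and not a binding site.

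Mean Mt1 differed between epithelium-like clusters, with both genotypes joined from 53.3 FPKM in cluster 7 to 1151 FPKM in cluster 6. Mt1 was detected in 28 of the 28 cells of cluster 6, whose leading genes were Spp1 and Mmp23, with means of 1217 FPKM in 6 Sox9Y440X/+ and 1133 FPKM in 22 wild-type cells. In cluster 3, led by Aldh1a1, Myl7 and Klk10, it was in 11 of 11 Sox9Y440X/+ cells (mean 1352 FPKM) and 9 of 10 wild-type cells (802 FPKM), a difference of 1.56. The ionocyte-like cluster 1, of the acid- and anion-moving cells marked by Foxi1 and Slc26a4, had Mt1 in 3 of 5 Sox9Y440X/+ and 8 of 8 wild-type cells, with means of 217 and 387 FPKM and a difference of -3.27. In cluster 8 it was in 3 of 5 Sox9Y440X/+ and 3 of 5 wild-type cells, with means of 74.2 and 504 FPKM and a difference of -1.05, so the sign of the genotype difference varied between clusters. Cluster 2 had it in 8 of 10 Sox9Y440X/+ cells at a mean of 127 FPKM and in its 1 wild-type cell at 53.2 FPKM. Cluster 7, of 10 wild-type cells only, had it in 3 of 10 at a mean of 53.3 FPKM. Cluster 7 also had the fewest genes, a median of 2057.5 per label against 5346 in cluster 3, and the part of depth in its low Mt1 was not tested. Over wild-type epithelium-like cells, those without Mt1 had a median of 2217.5 genes and those with it 3529.

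**Figure D3:**
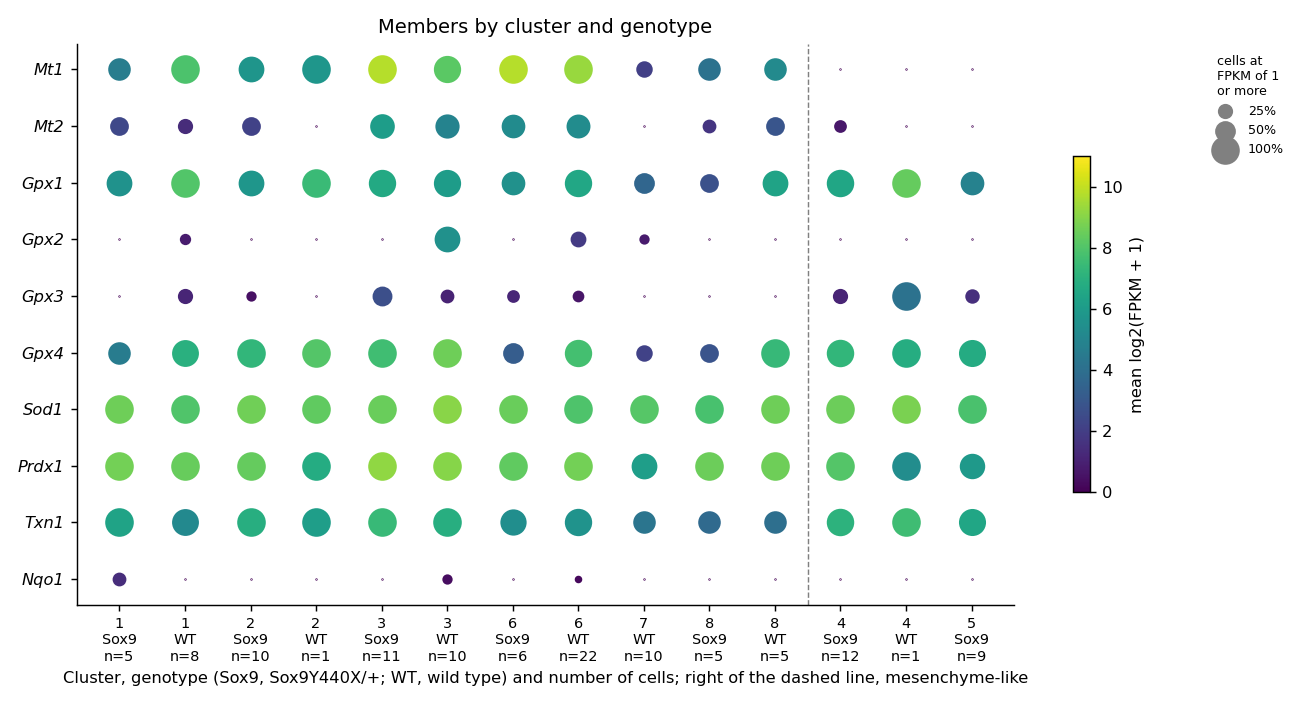
Mean log2(FPKM + 1) (colour) and share of cells at an FPKM of at least 1 (dot size) of the 10 members in each cluster and genotype, with the number of cells under each column. Gpx2 appears in the wild-type columns of clusters 1, 3, 6 and 7 and in no Sox9Y440X/+ column, and Mt1 is empty in the mesenchyme-like clusters 4 and 5.

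Gpx2 (ENSMUSG00000042808.7, GRCm38 chromosome 12, 76792333 to 76795554, minus strand) is a selenium-containing glutathione peroxidase best known from the epithelium of the gut. Among the members, only Gpx2 was detected in wild-type cells and in no Sox9Y440X/+ cell, although most wild-type cells lacked it too. It was listed at 0 in all 37 Sox9Y440X/+ epithelium-like cells, which allows a share of up to 8.11%. Wild-type cells had it in 16 of 56 (28.6%, 17.3% to 42.2%). The 16 cells held 19.8 to 507 FPKM with a median of 119.6, and the other 40 were at 0, so the median of all wild-type cells was 0 and the mean 49.6 FPKM. The difference was -2.001, and 0.218% of the genes compared had a lower one. Gpx2 was chosen on these values and was among the genes compared through wild type alone, so this rank is description. All 22 mesenchyme-like cells of both genotypes were also at 0, which for the 21 Sox9Y440X/+ cells allows up to 14.3%. A processed pseudogene, Gpx2-ps1, shares 28.5% of the 31-base words of the Gpx2 transcript and was detected in 3 cells at a mean of 0.0362 FPKM.

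Of the 16 Gpx2 cells, 8 lay in cluster 3, where Gpx2 was found in 0 of 11 Sox9Y440X/+ and 8 of 10 wild-type cells, with a wild-type mean of 149 FPKM and a difference of -5.53. The median number of genes in this cluster was 5237 in Sox9Y440X/+ and 5356.5 in wild-type cells. In cluster 6 the counts were 0 of 6 and 6 of 22, in cluster 1 they were 0 of 5 and 1 of 8, and in cluster 8 they were 0 of 5 and 0 of 5. The exact interval reaches 45.9% for 0 of 6 cells and 52.2% for 0 of 5. Cluster 7 added 1 of 10 wild-type cells. In cells of 2500 to 5500 genes Gpx2 was in 0 of 27 Sox9Y440X/+ and 12 of 37 wild-type cells, and among wild-type cells in 6 of 22 without Xist and 10 of 34 with it. Detection of Gpx2 moved with depth within wild type, with a rho of 0.41 between its level and the number of genes.

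The Gpx2 promoter is shown because it belongs to the member that differed most between the genotypes, in a mutant of a SOX-family factor. The RefSeq window (GRCm38.p6, chr12:76795505-76795804, minus strand, written on the gene's strand) held 1 match to the SOX core letters ACAAAG or ACAATG on either strand, in capitals, beginning 28 bases before the annotated start. Such a match was in 28.4% of all promoters of this length, among them that of Prdx1 and 1 of the 4 windows of Gpx4. It is a run of letters and not a binding site, and a link to the genotype difference was not tested.
Gpx2: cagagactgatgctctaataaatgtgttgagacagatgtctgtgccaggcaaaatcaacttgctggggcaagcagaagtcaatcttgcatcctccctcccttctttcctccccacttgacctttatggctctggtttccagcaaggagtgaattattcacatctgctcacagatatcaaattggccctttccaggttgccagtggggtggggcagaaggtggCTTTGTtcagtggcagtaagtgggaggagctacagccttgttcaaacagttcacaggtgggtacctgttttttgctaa

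Oc90 (ENSMUSG00000015001.17), set beside the members cell by cell, was detected in 12 of 37 Sox9Y440X/+ and 53 of 56 wild-type epithelium-like cells, with means of 102 and 1490 FPKM, and in 0 of 21 mesenchyme-like Sox9Y440X/+ cells. All 16 Gpx2 cells had Oc90, at 230 to 3759 FPKM with a median of 1562. The gene was found in nearly every wild-type cell, and 37 of them had Oc90 without Gpx2. The 12 Sox9Y440X/+ cells with Oc90 held 68.7 to 941 FPKM of it with a median of 187, and 0 of these 12 had Gpx2 while 11 had Mt1. Among the 53 wild-type cells with Oc90, 16 had Gpx2 and 44 had Mt1. Mt1 was present in most Oc90 cells of both genotypes, much as in all epithelium-like cells, 31 of 37 Sox9Y440X/+ and 46 of 56 wild-type. Another 20 Sox9Y440X/+ cells had Mt1 without Oc90. Gpx2 was found in wild-type Oc90 cells alone. The 0 of 12 allows a share of up to 25%, and the wild-type share was 30.2% (18.3% to 44.3%).

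The levels of the 3 genes were only weakly related. Over 56 wild-type cells rho was 0.11 for Mt1 and Gpx2, 0.19 for Gpx2 and Oc90 and 0.36 for Mt1 and Oc90. Over 37 Sox9Y440X/+ cells it was 0.03 for Mt1 and Oc90, and 0.27 over the 27 of them with 2500 to 5500 genes. Within wild-type clusters Mt1 and Oc90 had a rho of 0.75 over 10 cells of cluster 3, where Pearson's r was 0.37, and of -0.09 over 22 cells of cluster 6. Of 16 Gpx2 cells, 15 had Mt1, beside 46 of all 56 wild-type epithelium-like cells.

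**Figure D4:**
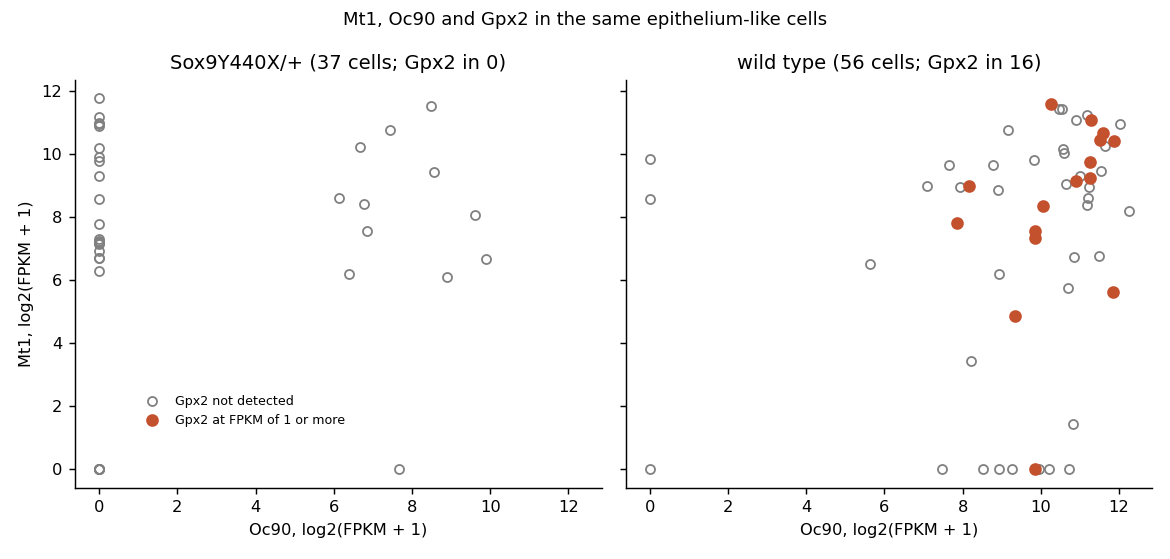
Oc90 (horizontal) against Mt1 (vertical), both as log2(FPKM + 1), in 37 Sox9Y440X/+ (left) and 56 wild-type (right) epithelium-like cells; filled points are cells with Gpx2 at an FPKM of at least 1. Filled points occur in wild type alone, 16 cells, all with Oc90 and 15 with Mt1, while 25 Sox9Y440X/+ cells have no Oc90 at any level of Mt1.

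Gpx4 (ENSMUSG00000075706.10, GRCm38 chromosome 10, 80047166 to 80056439, plus strand), which reduces lipid peroxides in membranes and guards cells against ferroptosis, differed by -0.99 log2 units between Sox9Y440X/+ and wild-type epithelium-like cells, just short of the limit of 1. It ranged from 0 to 487 FPKM with a median of 121 in Sox9Y440X/+ cells, and from 0 to 976 with a median of 265 in wild-type cells. The upper end of the range, above 487 FPKM, held wild-type cells alone. Detection over all epithelium-like cells was similar, 29 of 37 and 46 of 56 cells. The median among the cells with Gpx4 was 173 FPKM in Sox9Y440X/+ and 353 FPKM in wild type. Only 2.28% of genes had a lower difference. The mean was lower in Sox9Y440X/+ cells in each of the 4 clusters with at least 5 cells of both genotypes: 125 against 296 FPKM in cluster 1, 238 against 465 in cluster 3, 114 against 378 in cluster 6 and 58.8 against 248 in cluster 8. Detection also differed in these small groups, with 3 of 5 Sox9Y440X/+ against 7 of 8 wild-type cells in cluster 1. The counts were 3 of 6 against 20 of 22 in cluster 6 and 2 of 5 against 5 of 5 in cluster 8. In cluster 3 all cells had Gpx4, 11 of 11 and 10 of 10. In cells of 2500 to 5500 genes the difference was -1.66, and against wild-type cells without Xist -1.84. Mesenchyme-like Sox9Y440X/+ cells had Gpx4 in 19 of 21, at 0 to 941 FPKM with a median of 206, and Sox9Y440X/+ epithelium-like cells were lower than these by 1.27 log2 units. The wild-type epithelium-like median, 265 FPKM, was above that of the mesenchyme-like cells. Mean log2(FPKM + 1) was 6.74 in wild-type epithelium-like and 7.02 in mesenchyme-like Sox9Y440X/+ cells. A transcribed pseudogene, Gpx4-ps2, shares 66.4% of the 31-base words of Gpx4 and was not used here, so part of these values may be its reads.

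Gpx1 (ENSMUSG00000063856.7, GRCm38 chromosome 9, 108338903 to 108340343, plus strand), the widespread cytosolic glutathione peroxidase, overlapped between the classes. It ranged from 0 to 686 FPKM with a median of 105 in Sox9Y440X/+ epithelium-like cells, 0 to 509.9 with a median of 132 in wild-type ones, and 0 to 515 with a median of 114 in mesenchyme-like Sox9Y440X/+ cells. The difference between classes was -0.25, and -1.44 without the 7 doubtful connective cells described above. The genotype difference was -0.60. It was -1.15 in cells of 2500 to 5500 genes and -2.30 against wild-type cells without Xist, where Gpx1 was in 22 of 22 cells, compared with 25 of 34 wild-type cells with Xist. Within clusters its mean was lower in Sox9Y440X/+ cells of cluster 1 (132 against 284 FPKM) and cluster 8 (44.5 against 227 FPKM) and higher in cluster 3 (164 against 109 FPKM) and cluster 6 (273 against 179 FPKM). In cluster 6 the log2 difference had the other sign, -1.03, since 4 of 6 Sox9Y440X/+ and 20 of 22 wild-type cells had Gpx1.

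Gpx3 (ENSMUSG00000018339.11, GRCm38 chromosome 11, 54902453 to 54910377, plus strand), the secreted plasma enzyme, was sparse everywhere. It was detected in 7 of 37 Sox9Y440X/+ and 7 of 56 wild-type epithelium-like cells and in 5 of 21 mesenchyme-like Sox9Y440X/+ cells, with highest values of 134, 60.7 and 131 FPKM. Its genotype difference was 0.50, and -0.22 in cells of 2500 to 5500 genes. Of the 7 Sox9Y440X/+ epithelium-like cells with it, 5 lay in cluster 3.

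Sod1 (ENSMUSG00000022982.9, GRCm38 chromosome 16, 90220754 to 90226329, plus strand), the copper- and zinc-dependent superoxide dismutase of the cytosol, was the most even member and was detected in all 115 cells. It ranged from 18.9 to 810.1 FPKM with a median of 427 in Sox9Y440X/+ epithelium-like cells, and from 29.8 to 1263 with a median of 339 in wild-type ones. Mesenchyme-like Sox9Y440X/+ cells held 28.9 to 732 FPKM with a median of 349, so the 3 groups lay over one another. The differences were 0.20 between genotypes and 0.19 between classes. A processed pseudogene, Gm8566, shares 34.9% of its 31-base words and was detected in 66 cells at a mean of 3.34 FPKM.

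Prdx1 (ENSMUSG00000028691.12, GRCm38 chromosome 4, 116685544 to 116700822, plus strand), a peroxiredoxin that reduces hydrogen peroxide, followed the epithelium more than the genotype. It ranged from 21.4 to 1593 FPKM with a median of 438 in Sox9Y440X/+ epithelium-like cells and from 0 to 1307 with a median of 371 in wild-type ones, a difference of 0.47, which was -0.14 against wild-type cells without Xist. In mesenchyme-like Sox9Y440X/+ cells it reached 619 FPKM at most, with a lowest value of 0 and a median of 280.2, and the epithelium-like cells were higher by 1.54 log2 units. That difference was 0.93 in cells of 2500 to 5500 genes, where 14 of 15 mesenchyme-like cells had Prdx1. The highest connective cell lay well inside the epithelial range.

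Txn1 (ENSMUSG00000028367.5, GRCm38 chromosome 4, 57943373 to 57956411, minus strand), thioredoxin, which returns peroxiredoxins to their reduced form, ranked the other way between the classes. It ranged from 0 to 298 FPKM with a median of 119.96 in Sox9Y440X/+ epithelium-like cells, 0 to 259 with a median of 83.8 in wild-type ones, and 0 to 603 with a median of 168 in mesenchyme-like Sox9Y440X/+ cells. The epithelium-like cells differed from the mesenchyme-like ones by -0.51 and the genotypes by 0.90, neither reaching 1.

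Nqo1 (ENSMUSG00000003849.8, GRCm38 chromosome 8, 107388225 to 107403206, minus strand), a quinone reductase and a classical target of the oxidant-sensing factor Nrf2, was at 0 in nearly all cells. It was detected in 1 of 37 Sox9Y440X/+ epithelium-like cells, an ionocyte-like cell at 123 FPKM, in 2 of 56 wild-type ones with a highest value of 39.4 FPKM, and in 0 of 21 mesenchyme-like Sox9Y440X/+ cells.

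Counted over the list, 8 of the 10 members reached detection in 25% of the cells of 1 genotype. Of these 0 were at least 1 log2 unit higher and 1, Gpx2, at least 1 lower in Sox9Y440X/+ than in wild-type epithelium-like cells, 5 were above 0, and their median difference was 0.12. Over all 5957 genes 13.5% were higher, 2.2% lower and 72.8% above 0, with a median of 0.36. Gpx2 passed the detection filter through wild type alone, and the counts are given as description. Between classes of Sox9Y440X/+ cells 7 members passed, of which 3 were higher in epithelium-like cells (Mt1, Mt2, Prdx1), 1 lower (Gpx4) and 4 above 0. Over all 6620 genes 24.9% were higher, 12.9% lower and 60% above 0. Mt1 and Mt2 passed the filter through epithelium-like cells alone, so these counts too are given as description. Ordered by mean FPKM, epithelium-like cells of both genotypes began with Mt1, Prdx1, Sod1 and Gpx4, and mesenchyme-like Sox9Y440X/+ cells with Sod1, Prdx1, Gpx4 and Txn1. The ranges over cells of these leading genes overlapped in every group, so their order is that of the means alone.

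The 5 genes whose level followed Mt1 most closely over 56 wild-type epithelium-like cells, among 3931 genes, were Mt2 (rho 0.81), Spp1 (0.68), Ctsb (0.66), Slit2 (0.65) and Pcolce (0.65). Spp1, which encodes osteopontin, was also the leading gene of cluster 6. For Mt2 they were Mt1, Gja1 (0.63), H2-D1 (0.60), Ftl1 (0.60) and Spp1 (0.59). For Gpx2 they were Slk (0.59), Lypla1 (0.54), Adi1 (0.53), Cdh1 (0.52) and Tacc3 (0.51), each in 15 to 25 of the 56 cells, and Gpx2 moved with depth, so no weight rests on them. Mt1 ranked 1990th in likeness to Gpx2 and Oc90 ranked 1074th.

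Genes of the surrounding pathways, in 8 lists, numbered 113 measured, of which 62 passed the filter for the genotype comparison. Of these 9 were at least 1 log2 unit higher and 2 lower in Sox9Y440X/+ epithelium-like cells, with a median of 0.30, close to the shares and the median of all genes. Glutathione synthesis and use had 5 of 15 higher and 0 lower, with a median of 0.77. Mgst1, a membrane glutathione transferase, was in 29 of 37 Sox9Y440X/+ and 28 of 56 wild-type cells, with means of 178 and 88.9 FPKM and a difference of 2.35. The others were the glutaredoxin Glrx3 (1.25), Gclm (1.14), a subunit of the enzyme that makes the glutathione precursor, Gstm5 (1.13) and, just past the limit, the glutaredoxin Glrx2 (1.004), which is named here to complete the count. Of peroxiredoxin and thioredoxin genes 1 of 8 was higher and 1 lower, the mitochondrial Prdx3 (2.17) and the mitochondrial thioredoxin Txn2 (-1.07). Sod2, the mitochondrial dismutase, was higher by 1.58, with 30 of 37 Sox9Y440X/+ and 29 of 56 wild-type cells, and was 1 of 3 of its list.

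Of 15 genes of the Nrf2 axis 1 was higher, Nfe2l1 (1.43), and of 7 metal-handling genes 1, the zinc importer Slc39a6 (1.10). The selenoprotein supply list, which also holds selenoproteins themselves, had no gene of 8 past 1 log2 unit, and the iron list no gene of 4. Their most abundant genes, the selenoproteins Sepw1 and Selm, had differences of -0.41 and 0.54, and the ferritin chains Ftl1 and Fth1 -0.40 and 0.47. Nox3 was lower by 1.04, with 23 of 37 Sox9Y440X/+ and 39 of 56 wild-type cells and means of 98.2 and 167 FPKM. In cluster 3 it was in 11 of 11 and 10 of 10 cells, the same cells in which Gpx2 was in 0 and 8. Sox9Y440X/+ epithelium-like cells had the larger number of genes per label, and the part of depth in these differences was not tested for single genes.

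Between classes 65 listed genes passed, 22 of them higher and 7 lower in epithelium-like than in mesenchyme-like Sox9Y440X/+ cells, 33.8% and 10.8%, beside 24.9% and 12.9% of all 6620 genes. Metal-handling genes were higher in 3 of 8: the zinc importer Slc39a14 (25 of 37 against 2 of 21 cells, 4.14), the zinc exporter Slc30a4 (31 of 37 against 2 of 21, 3.85) and the copper chaperone Atox1 (2.54). Glutathione genes had 8 of 15 higher and 2 lower, led by Glrx5 (4.04), Mgst1 (3.74), Slc3a2 (2.97) and Mgst3 (2.80). Nox3 and its organizing subunit Noxo1 were in 23 and 13 of 37 epithelium-like cells and in 0 of 21 mesenchyme-like cells each, with differences of 4.05 and 2.24. Sod2 was higher by 3.25. The Nrf2 axis had 4 of 12 higher and 2 lower, led by the haem oxygenase Hmox1 (1.66), Aldh3a2 (1.43), Nfe2l1 (1.32) and Taldo1 (1.18). Peroxiredoxin and thioredoxin genes were split, 2 of 9 higher (Prdx3 1.81, Sesn3 1.09) and 2 lower (Txn2 -1.45, Txnip -1.42). Selenoprotein supply had Selm higher (2.46) and Sephs1 lower (-1.46), and of the iron genes Slc11a2 was higher (1.03).

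**Figure D5:**
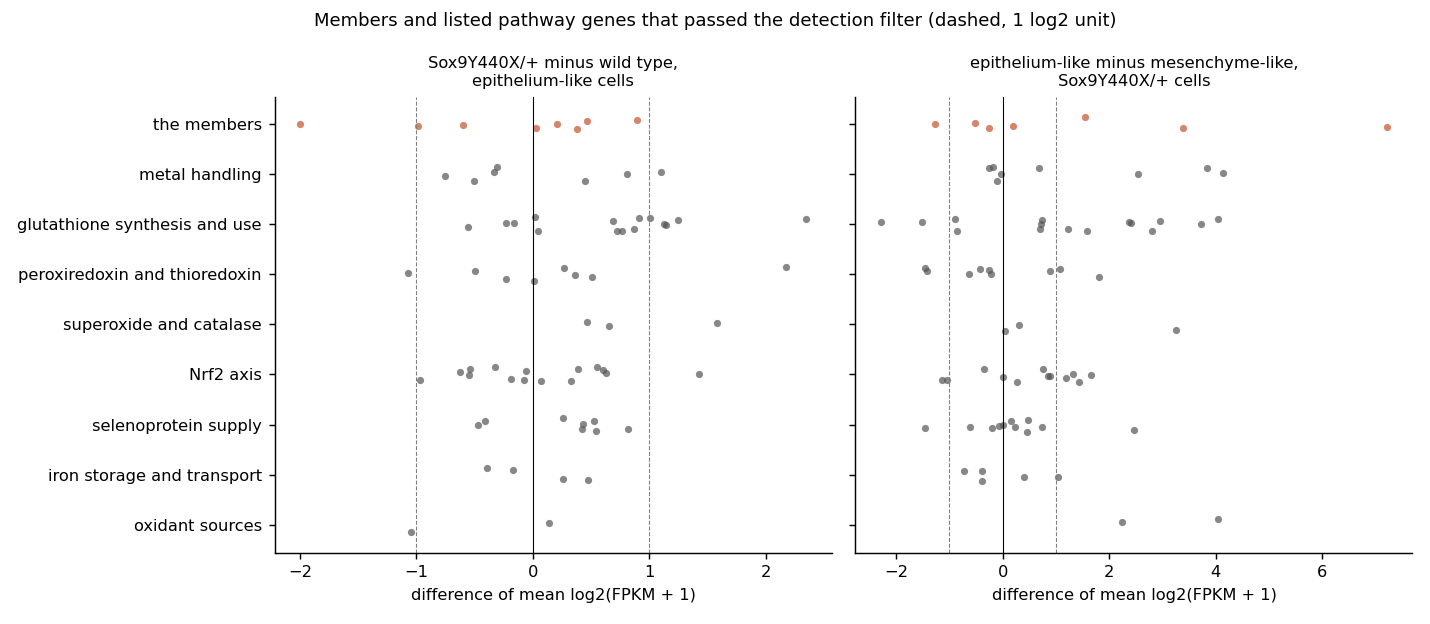
Differences of mean log2(FPKM + 1) (horizontal) of the members and of 8 lists of related genes (vertical), between genotypes in epithelium-like cells (left) and between classes in Sox9Y440X/+ cells (right); points are genes and dashed lines mark 1 log2 unit. Gpx2 lies at -2.001 on the left and Mt1 at 7.22 on the right, the outermost members.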

How the data were processed

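The authors deposited their values as FPKM, with 48555 entries for each of 120 cells. Per the submitters' processing notes, Cufflinks, HTSeq, HISAT2 and SAMtools 0.1.18 were used with build mm10; their roles and settings are not given. Depth per cell is unknown without counts, and the number of genes per label, which equalled the entries above 0 in all 120 cells, stands in for it. An exact 0 can be a failed estimate, which cannot be told from absence here. Gapdh was listed at 0 in 2 of 115 cells kept, both mesenchyme-like Sox9Y440X/+ cells. With all cells included, Sox9Y440X/+ cells had a median of 3545.5 genes with an FPKM of 1 or more (123 to 5645) and wild-type cells 2822.5 (402 to 5429).

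Entries of the same symbol were summed. The 4 Sox9Y440X/+ cells and 1 wild-type cell under 1000 genes were left out. Ward clustering used 15 principal components and 1500 variable genes, each found in 5 or more cells, without the members, the pathway lists and Oc90, into 8 clusters (Python 3.11.15, SciPy 1.17.1), and named from 12 marker lists. Doublets were not removed with a caller. For every gene found in 25% or more of a group's cells, mean log2(FPKM + 1) was compared, the calculation having been tested on simulated data. Since cells are no replicates, no test was made. Of 242 listed genes 239 were matched, 10 by an older symbol, and 99.3% of gene identifiers were found in GENCODE M21 on GRCm38, which gave coordinates. RefSeq promoters were matched for all 10 members by symbol. The members, lists and comparisons were chosen with earlier results of these data known. Named were all members and Oc90, up to 4 genes a list with a difference of at least 1 log2 unit, or else the 2 most abundant, and the 5 genes most like Mt1, Mt2 and Gpx2. The closing section gives other pseudocounts, scalings, filters on cells and genes and clusterings. An alternative leaving out doubtful mesenchyme-like cells was chosen after seeing the data.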

Additional observations from a re-analysis of the deposited data

Results flagged for a closer look

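Among the 5 cells left out for having fewer than 1000 genes per label, the Sox9Y440X/+ cell numbered 2 held Gpx1 at 3436 FPKM, above the highest wild-type cell kept, at 509.9 FPKM. It stood out as a signal in a cell that no comparison used. The cell had 457 genes per label and was at 0 for Mt1, Mt2, Gpx2, Gpx3, Gpx4, Prdx1, Txn1 and Nqo1.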

How the results depend on the processing

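No paired analysis was possible because numbers only name cells and no test was made. The count of members at least 1 log2 unit lower in Sox9Y440X/+ epithelium-like cells, 1 as reported, was 2 at a pseudocount of 0.1, scaled to the same summed FPKM, with all 120 cells and with at least 2000 genes, where Gpx4 joined Gpx2. It was 3 in cells of 2500 to 5500 genes, with Gpx1 too, and 4 against wild-type cells without Xist, with Mt1 too. The count higher, 0 as reported, was 1 at a pseudocount of 0.1 (Txn1, 1.17) and 2 for the ratio of mean FPKM on the log2 scale (Gpx3 1.52, Nqo1 1.77). Between classes, the count lower, 1 as reported, was 0 as the log2 ratio of means and at a pseudocount of 10, 2 in cells of 2500 to 5500 genes (Gpx3 -1.15) and 2 without the doubtful connective cells (Gpx1 -1.44). Prdx1 was 0.97 with all 120 cells, 0.89 with at least 2000 genes and 0.85 as a ratio of means. The rho of Mt1 and Oc90 in Sox9Y440X/+ cells was 0.27 in cells of 2500 to 5500 genes, against 0.03. The causes were not tested. The median of all genes between genotypes ranged from 0.06 to 0.64. No member past 1 log2 unit in the comparison as reported changed sign. Members below it did, between genotypes Mt1 (-1.52 to 0.55), Mt2 (-0.68 to 0.54), Gpx3 (-0.22 to 1.52), Prdx1 (-0.14 to 0.58) and Nqo1 (-0.19 to 1.77), and between classes Gpx1 (-1.44 to 0.05) and Gpx3 (-1.15 to 0.000718). Mt1 was detected in 83.3% to 87.5% of Sox9Y440X/+ and 78.6% to 95.5% of wild-type epithelium-like cells, Gpx2 in 0% and in 27.3% to 32.4%, and both in 0% of mesenchyme-like Sox9Y440X/+ cells. Clustering with 5 or 12 clusters, 3000 variable genes or the listed genes left the number of cells per class as reported. With all 120 cells clustered the classes changed, to 53 wild-type epithelium-like and 18 mesenchyme-like Sox9Y440X/+ cells from 56 and 21. Epithelium-like Sox9Y440X/+ cells stayed at 37. The results given for all 120 cells therefore also rest on other class membership.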
